A study of Mus musculus with 9 samples.

Results

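The proteasome is the cell's main protease for unwanted cytosolic and nuclear proteins, and its subunits were read here in sorted mouse microglia and spleen monocytes. Members were all genes whose symbol starts with Psma, Psmb, Psmc, Psmd, Psme, Psmf or Psmg followed by a number, each read from the brightest of its probe sets by the mean over the 9 arrays. They came to 50 of 19937 measured genes. Several probe sets covered Psma3 (3), Psma5, Psmb3, Psmc1 and Psmd2 (2 each), so that 56 probe sets matched in all. The 50 take in Psmc3ip and Psme3ip1, whose symbols fit the rule although they encode partners of Psmc3 and Psme3 and no proteasome subunit, and 2 tissue-specific subunits, Psma8 and Psmb11. An immune class of 5 genes was set apart: Psmb8, Psmb9, Psmb10, Psme1 and Psme2.

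All cells came from wild type mice of the C57BL/6 strain with no treatment given in the labels. Brain leukocytes were released by enzyme digestion, enriched on Percoll and stained for CD45, CD11b, F4/80, MHC class II and Ly6C and sorted. The microglia were divided by surface Ly6C into Ly6C-high cells, which the labels call MgSCs, and Ly6C-low cells, which the labels call bulk microglia. Spleen monocytes were the reference, and each of the 3 groups had 3 Affymetrix arrays. The sources used here give neither age nor sex, nor do they say that replicates of a group were different animals. Each p-value therefore measures only the spread among these samples, and that spread may be technical. Values are log2 intensities, and a difference of 1 on that scale is a 2-fold change.

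The core particle (20S) of the proteasome is a barrel of alpha and beta rings. Some beta subunits carry its active sites, and the regulatory cap (19S) recognises ubiquitin-tagged proteins, removes the tag, unfolds them with a ring of ATPases and threads them into the barrel. Interferon gamma induces alternative catalytic subunits, Psmb8, Psmb9 and Psmb10, which replace Psmb5, Psmb6 and Psmb7 in newly built particles and form the immunoproteasome. Its peptides suit MHC class I molecules, and blood-derived immune cells carry much of it without any stimulus. In brain, immunoproteasome subunits are known mainly from microglia, where they rise with inflammation.

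Promoter sequences are shown for 2 immune subunits and the constitutive subunits they replace, because the text below sets these pairs against each other. Each run is the 250 bases before the annotated start of the gene, 5′ to 3′ on the strand of the gene, from the RefSeq promoter table on GRCm38.p6. Capitals mark a match, on either strand, to an interferon gamma activated site (TTCNNNGAA), an interferon-stimulated response element core (GAAA, any 2 bases, GAAA) or an antioxidant response element core (TGACNNNGC), the motif bound by the NRF factors that raise constitutive proteasome genes. The positions are chr17:34197945-34198194 on the plus strand for Psmb8, chr14:54617996-54618245 on the minus strand for Psmb5, chr17:34187331-34187580 on the minus strand for Psmb9 and chr11:70525107-70525356 on the plus strand for Psmb6.
Psmb8: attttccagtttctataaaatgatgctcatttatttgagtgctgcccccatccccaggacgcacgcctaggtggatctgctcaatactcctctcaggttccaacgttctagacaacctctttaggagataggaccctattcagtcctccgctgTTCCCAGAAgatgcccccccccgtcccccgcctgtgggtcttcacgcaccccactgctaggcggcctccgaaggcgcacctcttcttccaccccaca
Psmb5: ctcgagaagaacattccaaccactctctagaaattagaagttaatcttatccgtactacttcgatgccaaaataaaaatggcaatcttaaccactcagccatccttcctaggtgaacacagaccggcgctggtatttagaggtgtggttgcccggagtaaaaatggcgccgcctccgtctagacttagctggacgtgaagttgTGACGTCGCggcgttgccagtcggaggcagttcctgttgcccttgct
Psmb9: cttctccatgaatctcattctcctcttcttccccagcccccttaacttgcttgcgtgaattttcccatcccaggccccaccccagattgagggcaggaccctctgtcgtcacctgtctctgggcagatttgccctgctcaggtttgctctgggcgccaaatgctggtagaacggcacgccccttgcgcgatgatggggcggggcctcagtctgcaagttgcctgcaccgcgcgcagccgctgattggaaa
Psmb6: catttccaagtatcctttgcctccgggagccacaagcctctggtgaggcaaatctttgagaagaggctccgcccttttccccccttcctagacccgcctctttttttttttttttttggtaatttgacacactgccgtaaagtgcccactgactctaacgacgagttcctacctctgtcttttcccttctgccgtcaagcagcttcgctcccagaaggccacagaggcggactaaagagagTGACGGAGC

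The Psmb8 run holds an interferon gamma activated site that begins at position -97 from the start, while the antioxidant response element cores of Psmb5 and Psmb6 begin at -47 and -9. The Psmb9 run holds none of the 3 motifs, which says only that these letters are absent from this window. Of the 50 members, 42 were found in the promoter table, and windows of 300 bases around their starts (250 before, 50 after) were searched on both strands, as were all 32851 promoters of the table. The interferon gamma activated site was found in 1 of 5 immune promoters and in 2 of 35 promoters of other subunits (5.71%), against 9.55% of the 27025 genes in the table and 8.3% of its promoters. The response element core was found in 1 immune promoter, that of Psme1, and in 4 of 35 others (11.4%), against 3.99% of genes and 3.44% of promoters. The antioxidant core was found in 0 of 5 immune promoters and in 6 of 35 others (17.1%), against 14% of genes and 12.4% of promoters. Matches are descriptions of letters and not binding sites. Psmb9 starts 226 bases from Tap1, which encodes a chain of the peptide transporter that feeds MHC class I, and 10865 bases from Psmb8, all within the MHC on chromosome 17. Psme1 and Psme2 start 12607 bases apart, and Psmb5 starts 7315 bases from the thymus gene Psmb11 on chromosome 14.

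The sorts were read with marker lists before the members. The mean over 11 of 12 listed endothelial genes was 10.48, 10.74 and 10.99 on the Ly6C-high arrays, against 6.37 to 7.69 on the Ly6C-low and 6.29 to 6.38 on the monocyte arrays. Over 9 of 10 homeostatic microglia genes it was 8.09 to 8.96, 11.04 to 11.53 and 6.86 to 6.94. The Ly6C-high arrays thus carried high endothelial transcripts and far lower microglia transcripts than the Ly6C-low arrays, which goes against their label. Over 9 of 10 classical monocyte genes it was 7.10 to 10.0, 6.47 to 6.79 and 10.4 to 10.7, and it was highest among the Ly6C-high arrays on array 2. The monocyte arrays also carried B cell markers (5 of 6 measured, 8.79 to 9.59, against at most 6.22 on brain arrays), T and NK cell markers (7 measured, 7.35 to 8.29, against at most 5.48) and neutrophil markers (10 measured, 10.2 to 10.8, against 5.96 to 9.75 on brain arrays). For neutrophil markers the 9.75 was Ly6C-low array 3 alone, with 6.96 and 7.36 on arrays 1 and 2 of its group. The part of all these cell types in the differences below was not tested. Correlations between arrays of a group ran from 0.872 to 0.924 for Ly6C-high microglia, against 0.967 to 0.980 for Ly6C-low microglia and 0.978 to 0.983 for monocytes.

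**Figure D1:**
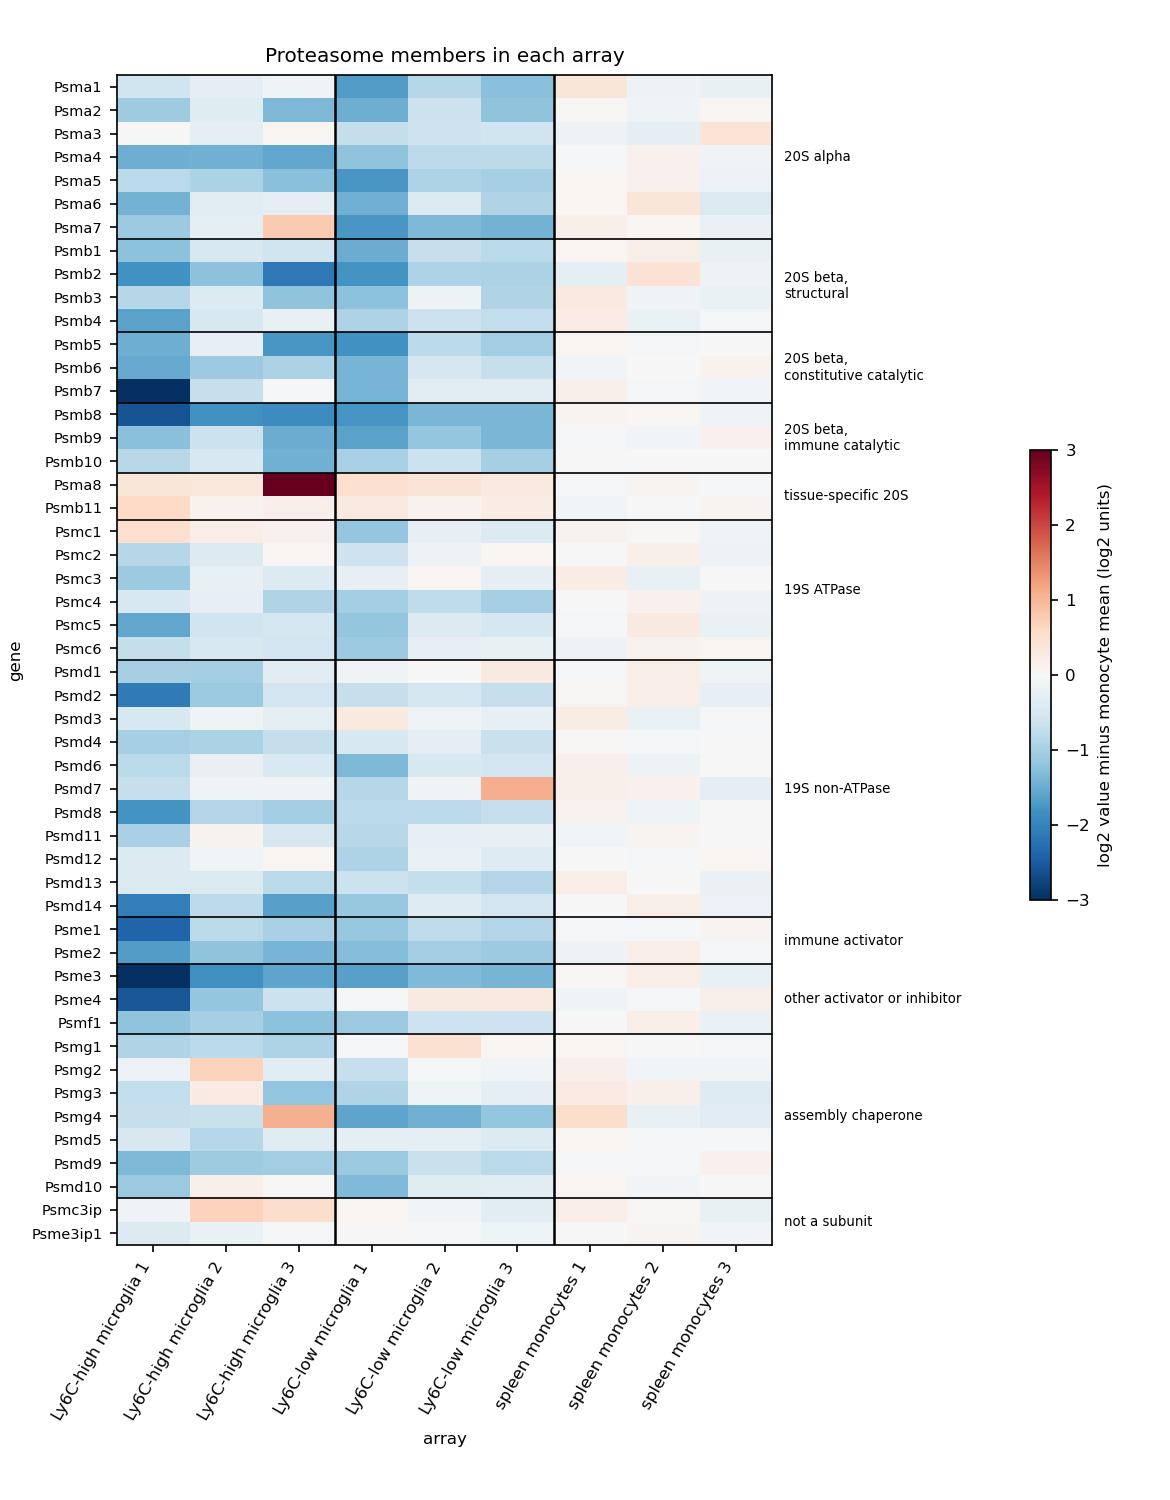
Log2 value of each of the 50 members on each of the 9 arrays minus the mean of the 3 monocyte arrays for that gene, with genes in rows grouped by role and arrays in columns. The colour scale ends at 3 in either direction. The members' medians lie at 7.72 to 8.37 on the 6 microglia arrays and at 8.83 to 8.93 on the monocyte arrays.

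Many proteasome genes stood lower in both microglia groups than in monocytes. Against monocytes, 22 of 50 members (44%) were lower in Ly6C-high microglia and 20 (40%) in Ly6C-low microglia, where 14.6% and 7.71% of all genes were called lower. The median difference over the members was -0.77 and -0.72, against 0.09 and 0.05 over all genes. Called means an adjusted p under 0.05 in limma with adjustment over all 19937 genes. In bulk samples, fewer cells of a type and less RNA per cell cannot be told apart. Both contrasts use the same 3 monocyte arrays, so they are not independent of each other.

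Nothing in the set was called higher than monocytes: limma called 0 members in either microglia group, where 6.88% and 6.8% of all genes were called higher. At an unadjusted p under 0.05 the members again counted 0 in that direction, against 3183 and 2452 of all 19937 genes. With 1 array left out, 1 gene was called higher in each contrast: Psmc3ip, which is no subunit, without Ly6C-high array 1 (0.61, adjusted p = 0.0374) and the testis gene Psma8 without Ly6C-high array 3 (0.39, adjusted p = 0.0335). The differences were below 0 for 45 of 50 members in Ly6C-high and 44 of 50 in Ly6C-low microglia, and for 8347 and 7911 of all 19937 genes. Since most members are bright, they were also set beside the 9969 genes at or above the median gene mean of 6.13. The median difference over these bright genes was -0.32 in Ly6C-high and -0.015 in Ly6C-low microglia, against -0.77 and -0.72 over the 50 members. Of the bright genes, 6619 and 5087 had differences below 0. Of the 47 members in that range, 21 (44.7%) were called lower in Ly6C-high microglia, against 25.9% of those genes, and 20 (42.6%) in Ly6C-low microglia, against 12.6%. All 3 Ly6C-high arrays lay below all 3 monocyte arrays for 31 members (62%; 21.9% of all genes), and all 3 Ly6C-low arrays did so for 36 (72%; 19.1%). These shares were not read for bright genes alone.

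The size of the set's difference depended on the scaling. With quantile normalization the counts were 13 and 16 and the median differences -0.39 and -0.59, where 9.43% and 6.83% of all genes were called lower. With cyclic loess they were 12 and 15, with median differences of -0.28 and -0.55, where 10.2% and 7.91% of all genes were called lower. In Ly6C-high microglia against monocytes, the calls of Psma5, Psmb10, Psmd2, Psme1 and Psme4 were lost under both scalings (adjusted p from 0.0531 to 0.168 and from 0.0603 to 0.32). Among all called genes of Ly6C-high microglia against monocytes, 32% were higher as deposited, 45.1% after quantile normalization and 43.5% after cyclic loess. The count in Ly6C-high microglia was 12 without monocyte array 2 and 13 without monocyte array 1. That in Ly6C-low microglia was 9 without monocyte array 1 and 10 without Ly6C-low array 1 or 3 or without monocyte array 2 or 3.

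Called lower in both groups were 15 members: Psma2, Psma4, Psma5, Psmb2, Psmb6, Psmb8, Psmb9, Psmb10, Psmd4, Psmd8, Psmd9, Psmd13, Psme2, Psme3 and Psmf1. A further 7 were called only in Ly6C-high microglia (Psmd1, Psmd2, Psmd5, Psmd14, Psme1, Psme4 and Psmg1), 5 only in Ly6C-low microglia (Psma1, Psma3, Psma7, Psmb1 and Psmc4), and 23 in neither. Of all genes, 5.5% were called lower in both groups, and as the monocyte arrays are shared, no more is read from these counts. A call in 1 contrast alone does not show that the groups differ, and the direct test between the microglia groups is given with each gene below. The order of group means was Ly6C-high, Ly6C-low, monocytes from low to high for 26 members (52%; 17.2% of all genes) and Ly6C-low, Ly6C-high, monocytes for 15 (30%; 10.9%). The order was not read for bright genes alone.

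**Figure D2:**
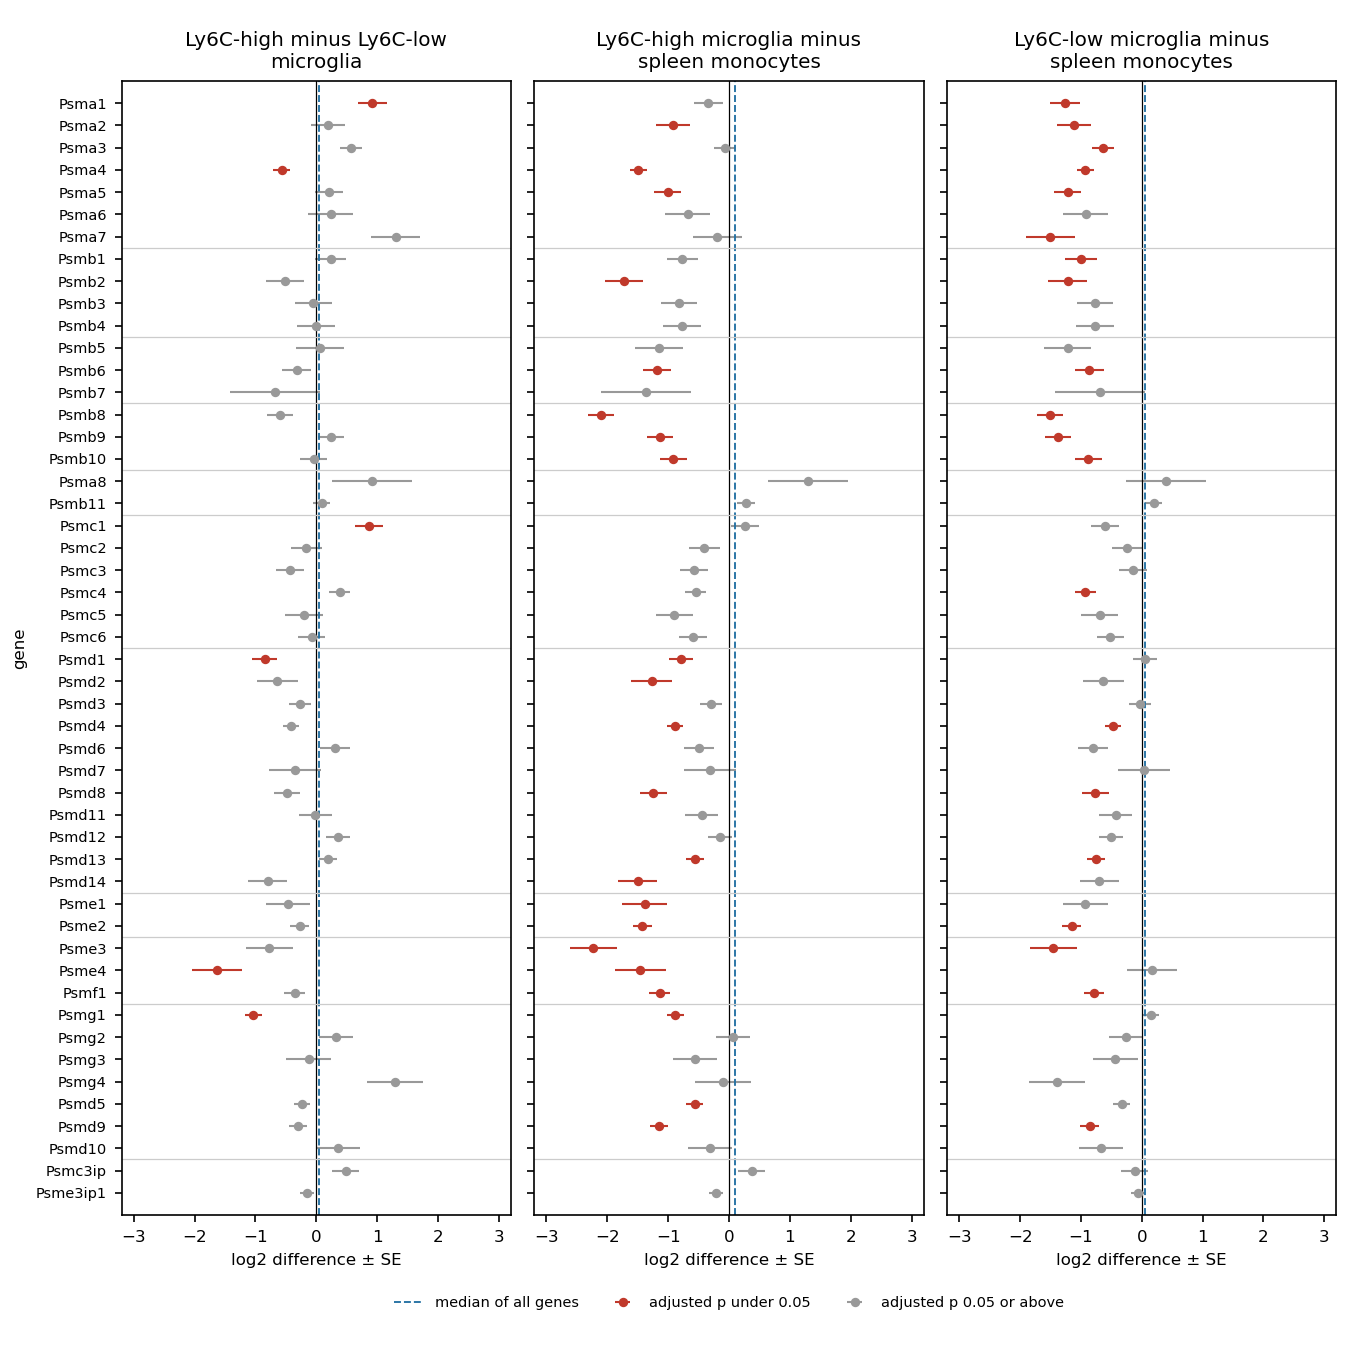
Difference in log2 value ± SE for each member in 3 panels (Ly6C-high minus Ly6C-low, Ly6C-high minus monocytes, Ly6C-low minus monocytes), with red points for an adjusted p under 0.05 and a dashed line at the median of all genes. Against monocytes 22 and 20 points are red and all lie left of 0, whereas between the microglia groups 6 are red, on both sides.

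Between the microglia groups few members were called. limma called 2 members higher in Ly6C-high microglia (4%; 4.49% of all genes) and 4 lower (8%; 11%). The median difference of -0.10 changed sign to 0.09 with quantile normalization and 0.13 with cyclic loess, and 30 of 50 members were below 0. Below 0 were also 8740 of all 19937 genes and 6373 of the 9969 bright genes, whose median was -0.21. The members thus did not stand lower than bright genes as a whole. Among all called genes of this contrast, 29.1% were higher as deposited and 40.8% after either scaling. There was no overlap between the arrays of both groups for 5 members that stood higher (10%; 12.9% of all genes) and 7 that stood lower (14%; 17.2%), so both shares lay near the background.

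The immune class stood below monocytes in both microglia groups. All 5 genes were called lower in Ly6C-high microglia and 4 of 5 in Ly6C-low microglia, with Psme1 the exception, and the class medians were -1.39 and -1.15. The other 45 members, with the chaperones, tissue-specific genes and non-subunits among them, had medians of -0.59 and -0.69, with 17 and 16 called lower. The 3 constitutive catalytic subunits had medians of -1.18 and -0.86, against -1.13 and -1.38 for the 3 immune catalytic subunits. These contrasts of medians were not tested. Of all genes, 14.6% and 7.71% were called lower. With cyclic loess the Ly6C-high calls of Psmb9, Psmb10 and Psme1 were lost. Between the microglia groups limma called 0 of the 5 in either direction, and at an unadjusted p under 0.05 the counts were 0 higher and 1 lower. Of all 19937 genes, 1960 were higher and 3665 lower at that unadjusted level.

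Psmb8 encodes the immune subunit with chymotrypsin-like activity. Its level was 6.98, 7.75 and 7.69 on the Ly6C-high arrays, 7.81, 8.19 and 8.19 on the Ly6C-low arrays and 9.66, 9.62 and 9.44 on the monocyte arrays. The 3 groups did not overlap, and every Ly6C-high array lay below every Ly6C-low array. It was 4.28-fold lower in Ly6C-high microglia than in monocytes (-2.10 ± 0.21, SE, adjusted p = 0.000312) and 2.85-fold lower in Ly6C-low microglia (-1.51 ± 0.21, adjusted p = 0.00189). Between the microglia groups the difference of -0.59 ± 0.21 did not pass (adjusted p = 0.109, 95% interval -1.08 to -0.10). In 21 of 23 alternative settings it did not pass either, and over the settings it ran from -0.73 to -0.26 with adjusted p up to 0.29. It passed in 2. In 1, chosen after seeing the data, Ly6C-high array 1 and Ly6C-low array 1 were both left out (-0.47, adjusted p = 0.028). The other was a fit with the number in the sample descriptions as a block (-0.60, adjusted p = 0.0475).

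Psmb9 encodes the immune subunit that takes the place of the caspase-like site. It stood at 8.90, 9.50 and 8.66 on the Ly6C-high, 8.55, 9.002 and 8.78 on the Ly6C-low and 10.11, 10.07 and 10.28 on the monocyte arrays. Both microglia groups overlapped, and all 6 of their arrays lay below all monocyte arrays. The difference from monocytes was -1.13 ± 0.21 in Ly6C-high (2.19-fold, adjusted p = 0.00722) and -1.38 ± 0.21 in Ly6C-low microglia (2.598-fold, adjusted p = 0.00319). The former no longer passed with cyclic loess (adjusted p = 0.0756). Between the microglia groups it was 0.24 ± 0.21 (adjusted p = 0.484).

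Psmb10 encodes the trypsin-like immune subunit. Its arrays read 8.80, 9.14 and 8.19 in Ly6C-high microglia, 8.65, 8.97 and 8.63 in Ly6C-low microglia and 9.61, 9.64 and 9.64 in monocytes. The monocyte arrays were the highest 3 and close together, while the microglia arrays overlapped. It was 1.89-fold lower in Ly6C-high (-0.92 ± 0.22, adjusted p = 0.0205) and 1.84-fold lower in Ly6C-low microglia (-0.88 ± 0.22, adjusted p = 0.0312) than in monocytes. The former call ended without any 1 monocyte array (adjusted p from 0.0614 to 0.0665), and the latter without any 1 monocyte array or without Ly6C-low array 1 or 3 (0.0869 to 0.105). With cyclic loess they were also lost (adjusted p = 0.32 and 0.112).

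Psme1 and Psme2 encode the alternating subunits of an interferon-induced cap that opens the barrel without ubiquitin or ATP. Psme1 read 8.48, 10.07 and 9.90 on the Ly6C-high, 9.73, 10.10 and 10.00 on the Ly6C-low and 10.82, 10.84 and 10.95 on the monocyte arrays. Ly6C-high array 1 stood more than 1 log2 unit below the rest, and all microglia arrays lay below the monocyte arrays. The difference from monocytes was -1.39 ± 0.37 in Ly6C-high (2.62-fold, adjusted p = 0.0288) and -0.93 ± 0.37 in Ly6C-low microglia (adjusted p = 0.149). The latter passed without Ly6C-high array 1, which enters the shared spread (adjusted p = 0.0018). The former was -0.88 without Ly6C-high array 1 (adjusted p = 0.00371) and did not pass without any 1 monocyte array (0.0803 to 0.0841).

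Psme2 was tighter, at 7.36, 7.84 and 7.65 on the Ly6C-high, 7.73, 7.997 and 7.94 on the Ly6C-low and 8.89, 9.24 and 8.99 on the monocyte arrays. It was 2.68-fold lower in Ly6C-high (-1.42 ± 0.16, adjusted p = 0.000451) and 2.22-fold lower in Ly6C-low microglia (-1.15 ± 0.16, adjusted p = 0.00149) than in monocytes. The microglia groups overlapped (-0.27, adjusted p = 0.29). A further probe set annotated to both Psme2 and Psme2b was left out of the fit and read 8.07, 8.75 and 9.24 as means of the 3 groups in the same order.

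**Figure D3:**
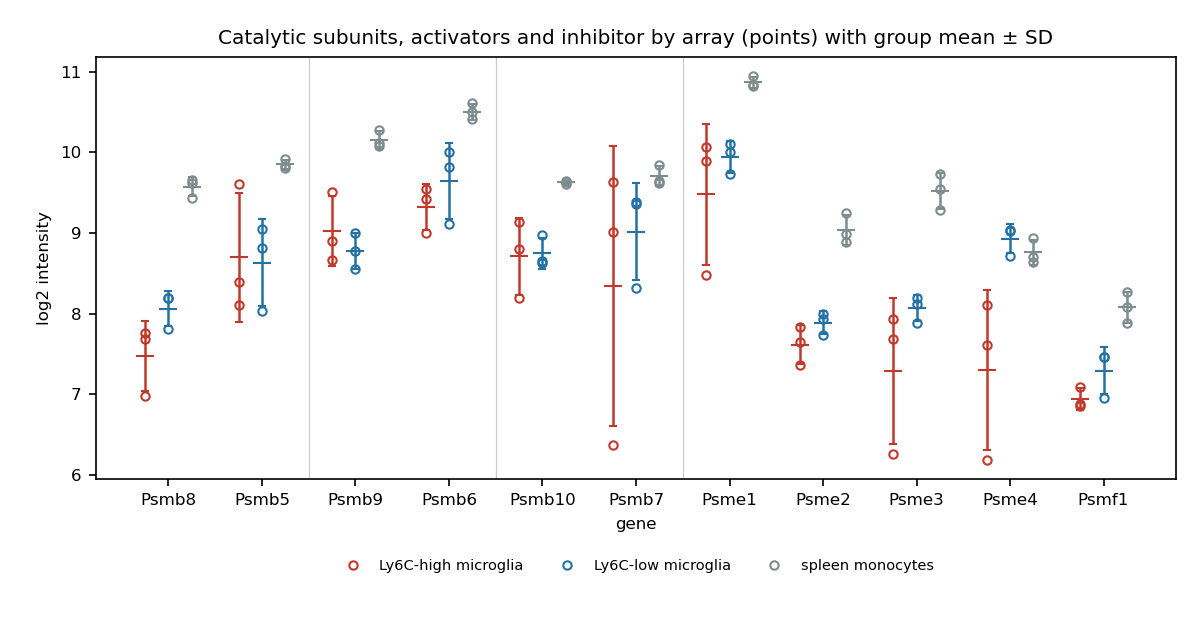
Log2 value on each array for the 6 catalytic subunits (each immune subunit beside the one it replaces), the activator subunits Psme1 to Psme4 and the inhibitor Psmf1, with 3 points per group. Levels of different genes come from different probe sets and are not comparable. Psmb8 separates all 3 groups, and Ly6C-high array 1 lies far below its group for Psmb7, Psme1 and Psme3.

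The constitutive catalytic subunits were also below monocytes, although only Psmb6 passed. Psmb6, the caspase-like site, read 8.999, 9.42 and 9.54 on the Ly6C-high, 9.12, 10.00 and 9.82 on the Ly6C-low and 10.41, 10.49 and 10.61 on the monocyte arrays. All microglia arrays lay below all monocyte arrays. It was 2.27-fold lower in Ly6C-high (-1.18 ± 0.24, adjusted p = 0.0091) and 1.82-fold lower in Ly6C-low microglia (-0.86 ± 0.24, adjusted p = 0.0432). The latter call ended without any 1 monocyte array, Ly6C-high array 2 or Ly6C-low array 1 or 3 (adjusted p from 0.0503 to 0.128).

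Psmb5, the chymotrypsin-like site and the main target of proteasome inhibitor drugs, read 8.39, 9.61 and 8.10 on the Ly6C-high, 8.03, 9.05 and 8.82 on the Ly6C-low and 9.91, 9.81 and 9.84 on the monocyte arrays. All microglia arrays were below the monocyte arrays, with Ly6C-high array 2 far above its group. The differences of -1.15 ± 0.39 and -1.22 ± 0.39 did not pass (adjusted p = 0.0686 and 0.0781). Without Ly6C-high array 2 both passed (adjusted p = 0.00489 and 0.0133).

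Psmb7, the trypsin-like site, read 6.37, 9.01 and 9.64 on the Ly6C-high, 8.32, 9.38 and 9.35 on the Ly6C-low and 9.85, 9.65 and 9.62 on the monocyte arrays. Ly6C-high array 1 stood far below all others, and array 3 of that group reached the monocytes. The difference from monocytes was -1.36 ± 0.74 in Ly6C-high (adjusted p = 0.198) and -0.69 ± 0.74 in Ly6C-low microglia (adjusted p = 0.665).

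Whether the immune subunits moved more than the subunits they replace was read within each array, as the immune minus the constitutive log2 value. For Psmb8 and Psmb5 this was -1.41, -1.85 and -0.41 on the Ly6C-high, -0.22, -0.86 and -0.62 on the Ly6C-low and -0.25, -0.18 and -0.40 on the monocyte arrays. The lowest values were those of Ly6C-high arrays 1 and 2. The Ly6C-low arrays overlapped both other groups, while Ly6C-high array 3 lay just below the monocytes. An exact permutation test of the F statistic over all 1680 groupings gave p = 0.0857 (0.246 adjusted over 3 pairs). The mean differences between groups were -0.94 for Ly6C-high and -0.29 for Ly6C-low microglia, each against monocytes. For Psmb9 and Psmb6 they were 0.05 and -0.52 (exact p = 0.164, adjusted 0.246), and for Psmb10 and Psmb7 0.45 and -0.19 (exact p = 0.839, adjusted 0.839). Several of these values rested on 1 array. Without Ly6C-high array 1 or 2 the value of 0.05 turned to -0.05 and -0.14, and without array 3 it was 0.34. The value of 0.45 turned to -0.58 without Ly6C-high array 1 and was 1.35 without array 3, and that of -0.19 turned to 0.04 without Ly6C-low array 3 and was -0.49 without array 1. For Psmb8 and Psmb5, -0.29 became -0.14 without Ly6C-low array 2 and -0.46 without array 1. No pair passed, which does not show that immune and constitutive subunits moved alike.

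**Figure D4:**
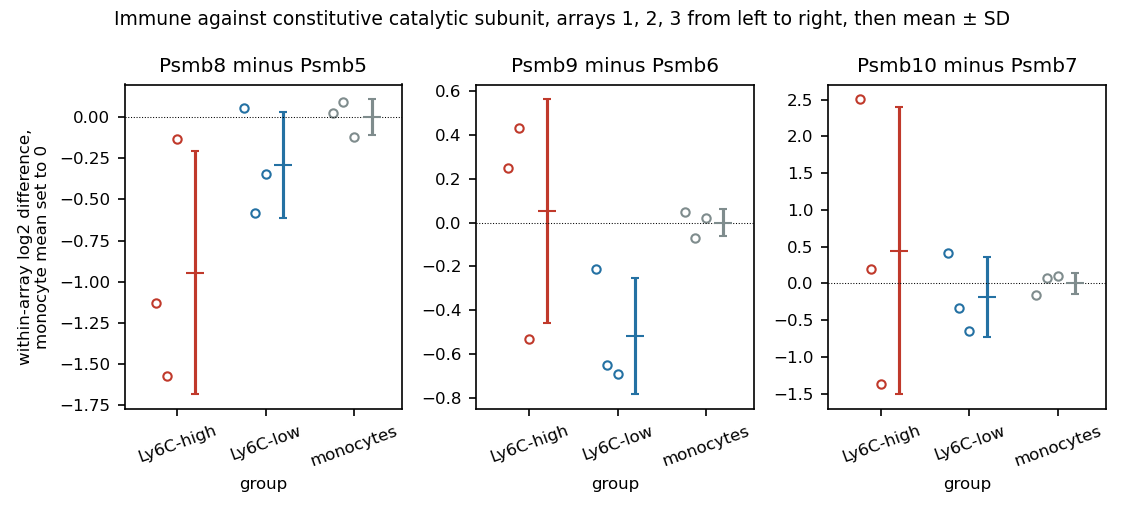
Immune minus constitutive log2 value within each array for 3 pairs (Psmb8 and Psmb5, Psmb9 and Psmb6, Psmb10 and Psmb7). In each panel the monocyte mean is set to 0. Arrays 1, 2 and 3 of each group run from left to right, followed by the group mean ± SD. The Ly6C-high points are spread widest in every panel. For Psmb8 and Psmb5 none of them reaches the monocyte points, and before the monocyte mean (-0.28) is set to 0 they run from -1.85 to -0.41.

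The alpha subunits, which form the outer rings and the gate of the barrel, held 2 of the 6 calls between the microglia groups, 1 in each direction. Their median difference from monocytes was -0.68 in Ly6C-high and -1.11 in Ly6C-low microglia, and limma called 3 and 6 of 7 lower. Psma4 read 8.30, 8.32 and 8.20 on the Ly6C-high, 8.56, 8.98 and 8.98 on the Ly6C-low and 9.73, 9.91 and 9.67 on the monocyte arrays. The 3 groups did not overlap. It was 2.81-fold lower in Ly6C-high microglia than in monocytes (-1.49 ± 0.14, adjusted p = 0.000199), 1.90-fold lower in Ly6C-low microglia (-0.93 ± 0.14, adjusted p = 0.00266) and 1.48-fold lower in Ly6C-high than in Ly6C-low microglia (-0.57 ± 0.14, adjusted p = 0.0266).

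Psma1 went the other way. It read 8.50, 8.80 and 8.96 on the Ly6C-high, 7.42, 8.24 and 7.83 on the Ly6C-low and 9.47, 8.95 and 8.87 on the monocyte arrays. The Ly6C-low arrays were the lowest 3, and Ly6C-high array 3 lay within the monocyte range. It was 1.90-fold higher in Ly6C-high than in Ly6C-low microglia (0.92 ± 0.24, adjusted p = 0.0345) and 2.40-fold lower in Ly6C-low microglia than in monocytes (-1.26 ± 0.24, adjusted p = 0.0088). Against monocytes the Ly6C-high difference of -0.34 did not pass (adjusted p = 0.303).

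Between the microglia groups the calls of both genes were fragile. Psma4 did not pass without Ly6C-high array 3, Ly6C-low array 2 or 3 or monocyte array 1 (adjusted p from 0.0501 to 0.109), and after quantile normalization its adjusted p was 0.171. Psma1 did not pass without Ly6C-high array 2 or 3, Ly6C-low array 1 or 3 or monocyte array 2 (0.0554 to 0.102).

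Psma7 read 9.57, 10.40 and 11.47 on the Ly6C-high, 8.93, 9.33 and 9.25 on the Ly6C-low and 10.82, 10.72 and 10.48 on the monocyte arrays. The Ly6C-high arrays spanned nearly 2 log2 units and took in the monocyte range, while the Ly6C-low arrays were the lowest 3. It was 2.84-fold lower in Ly6C-low microglia than in monocytes (-1.50 ± 0.40, adjusted p = 0.0389), and this call ended without any 1 array of either group (adjusted p from 0.0782 to 0.126). The difference of 1.31 ± 0.40 between the microglia groups did not pass (adjusted p = 0.063). Psma5, at 8.98, 8.85 and 8.55, 8.06, 8.88 and 8.80, and 9.85, 9.92 and 9.63 in the same order, was lower in both microglia groups (-1.01 ± 0.23, adjusted p = 0.015, and -1.22 ± 0.23, adjusted p = 0.00742). The former call ended without monocyte array 1 or 2 (0.0556 and 0.0596), and the difference shrank to -0.59 with quantile normalization (adjusted p = 0.11) and -0.47 with cyclic loess (adjusted p = 0.232). Psma2 was called lower in both (-0.92 and -1.11, adjusted p = 0.0468 and 0.0296) and Psma3 in Ly6C-low microglia (-0.64, adjusted p = 0.0447), while Psma6 did not pass (-0.68 and -0.92, adjusted p = 0.2 and 0.156).

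The beta subunits without an active site, which complete the inner rings, had medians of -0.80 and -0.89 against monocytes, with 1 and 2 of 4 called lower and all 4 at an unadjusted p under 0.05 in both contrasts. Of all 19937 genes, 4351 and 2658 were lower at that unadjusted level. Psmb2 read 8.43, 9.004 and 8.10 on the Ly6C-high, 8.46, 9.31 and 9.30 on the Ly6C-low and 9.96, 10.67 and 10.10 on the monocyte arrays. Values of the microglia groups overlapped, all below the monocytes. It was 3.31-fold lower in Ly6C-high (-1.73 ± 0.32, adjusted p = 0.00612) and 2.33-fold lower in Ly6C-low microglia (-1.22 ± 0.32, adjusted p = 0.0344), and the latter call ended without any 1 array of the 2 groups (0.0562 to 0.124). Between the microglia groups it differed by -0.51 (adjusted p = 0.33). Psmb1 was 2.002-fold lower in Ly6C-low microglia (-1.001 ± 0.26, adjusted p = 0.0347), which did not pass without any 1 monocyte array or without Ly6C-low array 1 or 3 (0.0571 to 0.122). Psmb3 and Psmb4 had differences from -0.82 to -0.77 with adjusted p from 0.0861 to 0.168. The second probe set of Psmb3 differed from monocytes by -0.29 in Ly6C-high and -1.04 in Ly6C-low microglia. On it Ly6C-high array 1 read 10.73, above the monocyte arrays at 9.23, 8.99 and 9.02.

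Cap subunits had smaller median differences from monocytes than barrel subunits. Over 17 cap subunits the medians were -0.56 in Ly6C-high and -0.52 in Ly6C-low microglia, with 6 and 4 called lower, against -0.87 and -0.96 over the 14 constitutive barrel subunits, with 5 and 9 called lower. This contrast of medians was not tested. Among the 6 ATPases, which unfold the substrate, limma called 0 lower in Ly6C-high microglia, although 4 had an unadjusted p under 0.05, and 1 lower in Ly6C-low microglia. At that unadjusted level 4351 of all 19937 genes were lower in Ly6C-high microglia.

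Psmc1 read 9.36, 9.08 and 9.02 on the Ly6C-high, 7.72, 8.65 and 8.48 on the Ly6C-low and 8.99, 8.91 and 8.76 on the monocyte arrays. On this probe set all Ly6C-high arrays lay above all others, and it was 1.83-fold higher than in Ly6C-low microglia (0.87 ± 0.23, adjusted p = 0.0348). This call ended without any 1 array other than Ly6C-low array 1 or 2 (adjusted p from 0.0513 to 0.0932). On its second probe set the microglia groups differed by 0.38, but all Ly6C-high arrays lay below all monocyte arrays. They read 8.56, 8.82 and 8.80 against 9.11, 9.05 and 9.19 (-0.39). Psmc4 was the ATPase called lower in Ly6C-low microglia than in monocytes, at 7.59, 7.85 and 7.62 against 8.63, 8.75 and 8.47 (-0.93 ± 0.17, 1.90-fold, adjusted p = 0.00754). Psmc5 stood lowest among the ATPases in Ly6C-high microglia against monocytes (-0.90, adjusted p = 0.07). Psmc2, Psmc3 and Psmc6 had differences from monocytes of -0.59 to -0.15, with adjusted p from 0.0918 to 0.791.

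Of the 11 other cap subunits, 6 were called lower in Ly6C-high and 3 in Ly6C-low microglia than in monocytes. Psmd14, the protease that cuts ubiquitin chains off the substrate, read 6.67, 7.95 and 7.11 on the Ly6C-high, 7.61, 8.36 and 8.16 on the Ly6C-low and 8.73, 8.92 and 8.58 on the monocyte arrays. The microglia groups overlapped and all their arrays lay below the monocytes. It was 2.82-fold lower in Ly6C-high microglia (-1.50 ± 0.32, adjusted p = 0.0124, or 0.0505 without monocyte array 2), and the Ly6C-low difference of -0.70 did not pass (adjusted p = 0.216).

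Psmd8, a lid subunit, read 8.21, 9.13 and 8.96 on the Ly6C-high, 9.20, 9.23 and 9.31 on the Ly6C-low and 10.11, 9.89 and 10.03 on the monocyte arrays. The groups did not overlap. It was 2.36-fold lower in Ly6C-high (-1.24 ± 0.22, adjusted p = 0.00497) and 1.70-fold lower in Ly6C-low microglia (-0.76 ± 0.22, adjusted p = 0.0493). The latter call ended without any 1 array of the 2 groups or without Ly6C-high array 3 (0.0554 to 0.159).

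Psmd4, a ubiquitin receptor of the cap, was lower in both (-0.89 ± 0.13, adjusted p = 0.00219, and -0.47 ± 0.13, adjusted p = 0.047) and was named after its values were seen. Psmd13, another lid subunit, was 1.68-fold lower in Ly6C-low microglia (-0.75 ± 0.15, adjusted p = 0.0105) and also lower in Ly6C-high microglia (-0.56 ± 0.15, adjusted p = 0.0299). Psmd2, a large scaffold of the cap base, was 2.41-fold lower in Ly6C-high microglia (-1.27 ± 0.34, adjusted p = 0.0292) on arrays at 6.61, 7.63 and 8.16 against 8.78, 8.94 and 8.50 in monocytes. This call ended without any 1 monocyte array (0.0549 to 0.0998), the difference was -0.84 without Ly6C-high array 1 (adjusted p = 0.0201), and its other probe set differed by -0.55. Psmd3, Psmd6, Psmd7, Psmd11 and Psmd12 did not pass in any contrast, with differences from monocytes of -0.80 to 0.04. Ly6C-low array 3 stood apart for Psmd7, at 9.54 against 7.59 and 8.35 on the other arrays of its group.

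Psmd1, the other large scaffold, set the microglia groups apart. It read 7.96, 7.94 and 8.62 on the Ly6C-high, 8.85, 8.97 and 9.24 on the Ly6C-low and 8.92, 9.13 and 8.84 on the monocyte arrays. The Ly6C-high arrays were the lowest 3, and the other groups overlapped. It was 1.80-fold lower in Ly6C-high than in Ly6C-low microglia (-0.85 ± 0.20, adjusted p = 0.0222) and 1.73-fold lower than in monocytes (-0.79 ± 0.20, adjusted p = 0.0248), while Ly6C-low microglia and monocytes differed by 0.06 (adjusted p = 0.921). The call between the microglia groups ended without Ly6C-high array 1 or 2 or Ly6C-low array 2 or 3 (0.0512 to 0.0916). It was also lost with quantile normalization (-0.61, adjusted p = 0.0707) and cyclic loess (-0.51, adjusted p = 0.123). With weights per group and with only the 2 groups compared the adjusted p was 0.0514 and 0.0695.

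Of the activators and the inhibitor outside the immune class, limma called 3 of 3 lower in Ly6C-high and 2 in Ly6C-low microglia than in monocytes. Psme3, which forms the nuclear cap related to Psme1 and Psme2, read 6.26, 7.68 and 7.94 on the Ly6C-high, 7.89, 8.19 and 8.11 on the Ly6C-low and 9.54, 9.73 and 9.29 on the monocyte arrays. All microglia arrays lay more than 1 log2 unit below all monocyte arrays. It was 4.68-fold lower in Ly6C-high (-2.23 ± 0.38, adjusted p = 0.00467) and 2.74-fold lower in Ly6C-low microglia (-1.46 ± 0.38, adjusted p = 0.0369). The former was -1.71 without Ly6C-high array 1, and the latter call ended without any 1 array of the 2 groups (0.0705 to 0.124).

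Psme4, a single-chain nuclear activator known for histone breakdown, had another pattern. It read 6.19, 7.61 and 8.11 on the Ly6C-high, 8.72, 9.03 and 9.04 on the Ly6C-low and 8.64, 8.698 and 8.94 on the monocyte arrays. The Ly6C-high arrays were the lowest 3, and the other groups overlapped. It was 3.09-fold lower in Ly6C-high than in Ly6C-low microglia (-1.63 ± 0.41, adjusted p = 0.0305) and 2.75-fold lower than in monocytes (-1.46 ± 0.41, adjusted p = 0.0384), with 0.17 between Ly6C-low microglia and monocytes (adjusted p = 0.877). Either call ended without any 1 array of the Ly6C-low or monocyte groups (0.0502 to 0.109). Without Ly6C-high array 1 the differences were -1.07 (adjusted p = 0.00768) and -0.90 (adjusted p = 0.0146).

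Psmf1, an inhibitor of the barrel, read 6.88, 7.09 and 6.85 on the Ly6C-high, 6.96, 7.46 and 7.46 on the Ly6C-low and 8.08, 8.27 and 7.89 on the monocyte arrays. Both microglia groups lay below the monocytes and overlapped. It was 2.20-fold lower in Ly6C-high (-1.14 ± 0.17, adjusted p = 0.00228) and 1.72-fold lower in Ly6C-low microglia (-0.79 ± 0.17, adjusted p = 0.0156). The latter did not pass without monocyte array 1 or 2 (0.0577 and 0.0667).

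The 7 assembly chaperones had medians of -0.56 and -0.44 against monocytes, with 3 and 1 called lower. Psmg1, which pairs with Psmg2 to start the alpha ring, read 6.15, 6.25 and 6.13 on the Ly6C-high, 6.9995, 7.52 and 7.11 on the Ly6C-low and 7.13, 7.06 and 6.9995 on the monocyte arrays. The Ly6C-high arrays lay close together and below all others, at a level near the median gene mean of 6.13. It was 2.04-fold lower than in Ly6C-low microglia (-1.03 ± 0.14, adjusted p = 0.00163) and 1.85-fold lower than in monocytes (-0.88 ± 0.14, adjusted p = 0.00321). Of the 6 members called between the microglia groups, it alone passed under all 23 alternative settings that were run.

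Psmd9, a chaperone of the ATPase ring, read 5.80, 6.09 and 6.13 on the Ly6C-high, 6.04, 6.503 and 6.36 on the Ly6C-low and 7.09, 7.11 and 7.28 on the monocyte arrays. The microglia groups overlapped below the monocytes. It was 2.23-fold lower in Ly6C-high (-1.15 ± 0.15, adjusted p = 0.00108) and 1.81-fold lower in Ly6C-low microglia (-0.86 ± 0.15, adjusted p = 0.00539). Psmd5 was called lower in Ly6C-high microglia (-0.57 ± 0.14, adjusted p = 0.0201), whereas Psmg2, Psmg3, Psmg4 and Psmd10 did not pass in any contrast. Psmg4 stood at 9.03 on Ly6C-high array 3 against 7.28 and 7.29 on arrays 1 and 2.

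The tissue-specific members were dim. Psma8, known from testis, read 4.94, 4.90 and 7.76 on the Ly6C-high arrays, 4.86 to 5.05 on the Ly6C-low and 4.52 to 4.64 on the monocyte arrays, so that Ly6C-high array 3 alone stood high (1.30 ± 0.66 against monocytes, adjusted p = 0.176). Psmb11, the catalytic subunit of thymic cortex epithelium, ran from 5.48 to 6.16 over all 9 arrays. The 2 genes that are no subunits did not pass in any contrast, and Psmc3ip and Psme3ip1 differed from monocytes by 0.37 and -0.21 in Ly6C-high and by -0.11 and -0.06 in Ly6C-low microglia.

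Within each group, 1 array held the lowest value for many members. Ly6C-low array 1 held the lowest value of its group for 40 of 50 members (80%; 35.1% of all genes), Ly6C-high array 1 for 30 (60%; 30.2%) and monocyte array 3 for 26 (52%; 33.9%). These arrays also had the narrowest interquartile range of their groups (2.70, 2.24 and 2.89), and 47 of the 50 members are bright. Over all genes, Ly6C-low array 1 and Ly6C-high array 1 were also the highest of their group for 48.2% and 48.5%. Whether the members varied more than other bright genes was not tested. The array medians over the 50 members were 7.72, 8.32 and 8.16 on the Ly6C-high, 7.84, 8.37 and 8.30 on the Ly6C-low and 8.85, 8.93 and 8.83 on the monocyte arrays, so array 1 was low in both microglia groups and all 6 lay below the monocytes. The median SD within a group was 0.43, 0.26 and 0.15 over the members, against 0.27, 0.14 and 0.11 over all genes. Without the first array of both microglia groups, the counts between the microglia groups were 4 higher and 4 lower.

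Partner genes were read from lists chosen with earlier results of these data known. Of all genes, 4.49% were called higher and 11% lower between the microglia groups. Against monocytes the shares were 6.88% and 14.6% in Ly6C-high and 6.8% and 7.71% in Ly6C-low microglia. The medians over all genes were 0.05, 0.09 and 0.05, and no list was tested as a set. Of 14 measured proteasome partners and maturation factors (18 listed), 2 were called higher and 4 lower in Ly6C-high than in Ly6C-low microglia. Against monocytes 0 were higher and 2 lower in either group, and the list medians were -0.31, -0.53 and -0.26. Pomp, which completes the beta ring and is spent in the process, read 10.66, 10.61 and 11.31 on the Ly6C-high, 9.43, 9.66 and 9.35 on the Ly6C-low and 10.56, 10.14 and 10.09 on the monocyte arrays. The Ly6C-low arrays were the lowest 3 (1.38 ± 0.21 between the microglia groups, 2.601-fold, adjusted p = 0.00283). Sem1, a small lid subunit outside the symbol rule, was likewise lowest in Ly6C-low microglia, at 8.84, 9.09 and 8.86 against 10.10, 11.23 and 10.68 in Ly6C-high microglia and 11.34, 11.22 and 11.03 in monocytes. It was 3.34-fold higher in Ly6C-high than in Ly6C-low microglia (1.74 ± 0.25, adjusted p = 0.00217) and 4.83-fold lower in Ly6C-low microglia than in monocytes (-2.27 ± 0.25, adjusted p = 0.00051). Usp14, a deubiquitinase of the cap, was lowest in Ly6C-high microglia, by -1.41 ± 0.21 against Ly6C-low microglia (adjusted p = 0.0024) and by -1.77 ± 0.21 against monocytes (adjusted p = 0.000691).

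The NRF route restores proteasome genes when the proteasome is blocked, though not every gene listed for it acts in that direction. Of 9 measured genes of this route and p97 (10 listed), 1 was lower in Ly6C-high than in Ly6C-low microglia, Syvn1 (-0.62, adjusted p = 0.0254). Against monocytes 2 were lower in Ly6C-high microglia, Nploc4 (-1.06, adjusted p = 0.0118) and Syvn1 (-0.50, adjusted p = 0.0476). In Ly6C-low microglia limma called 0, with 0 at an unadjusted p under 0.05, where 2452 of all 19937 genes were higher and 2658 lower. Of 11 measured genes of the interferon gamma route (12 listed), 3 were lower in Ly6C-high than in Ly6C-low microglia, namely Ifngr1 (-1.89, adjusted p = 0.0227), Jak1 (-1.42, adjusted p = 0.0133) and Irf8 (-1.43, adjusted p = 0.00189). Against monocytes 0 were called higher and 5 lower in Ly6C-high microglia, with a list median of -1.26. They were Ifngr1 (-2.42, adjusted p = 0.00654) and Ifngr2 (-2.39, adjusted p = 0.0156), the receptor chains, Jak1 (-1.61, adjusted p = 0.00664) and Jak2 (-1.26, adjusted p = 0.0147), their kinases, and the transcription factor Irf8 (-1.26, adjusted p = 0.00336). In Ly6C-low microglia 1 was lower, Jak2 (-1.68, adjusted p = 0.00451), and the list median was -0.27. Of 6 listed ubiquitin and E1 genes only Uba6, an enzyme that activates ubiquitin, was measured, and it was lower in Ly6C-high (-1.75, adjusted p = 0.00219) and Ly6C-low microglia (-1.18, adjusted p = 0.0167) than in monocytes.

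Of 11 measured genes of MHC class I loading (15 listed), 4 were lower in Ly6C-high than in Ly6C-low microglia: the folding chaperones Canx (-1.17, adjusted p = 0.00875) and Calr (-0.95, adjusted p = 0.00275), the peptide editor Tapbpl (-0.95, adjusted p = 0.0294) and the class I-like gene H2-M3 (-0.86, adjusted p = 0.0137). Against monocytes 4 were lower in Ly6C-high microglia, and 1 was higher and 1 lower in Ly6C-low microglia. Tap1, the neighbour of Psmb9, read 6.30, 7.06 and 6.52 on the Ly6C-high, 7.06, 6.83 and 6.72 on the Ly6C-low and 8.35, 8.36 and 8.697 on the monocyte arrays. The microglia groups overlapped more than 1 log2 unit below the monocytes. It was 3.59-fold lower in Ly6C-high (-1.84 ± 0.20, adjusted p = 0.000487) and 3.03-fold lower in Ly6C-low microglia (-1.60 ± 0.20, adjusted p = 0.00109), and the microglia groups differed by -0.24 (adjusted p = 0.463). The gene called higher in Ly6C-low microglia was Calr (0.63, adjusted p = 0.0213).

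**Figure D5:**
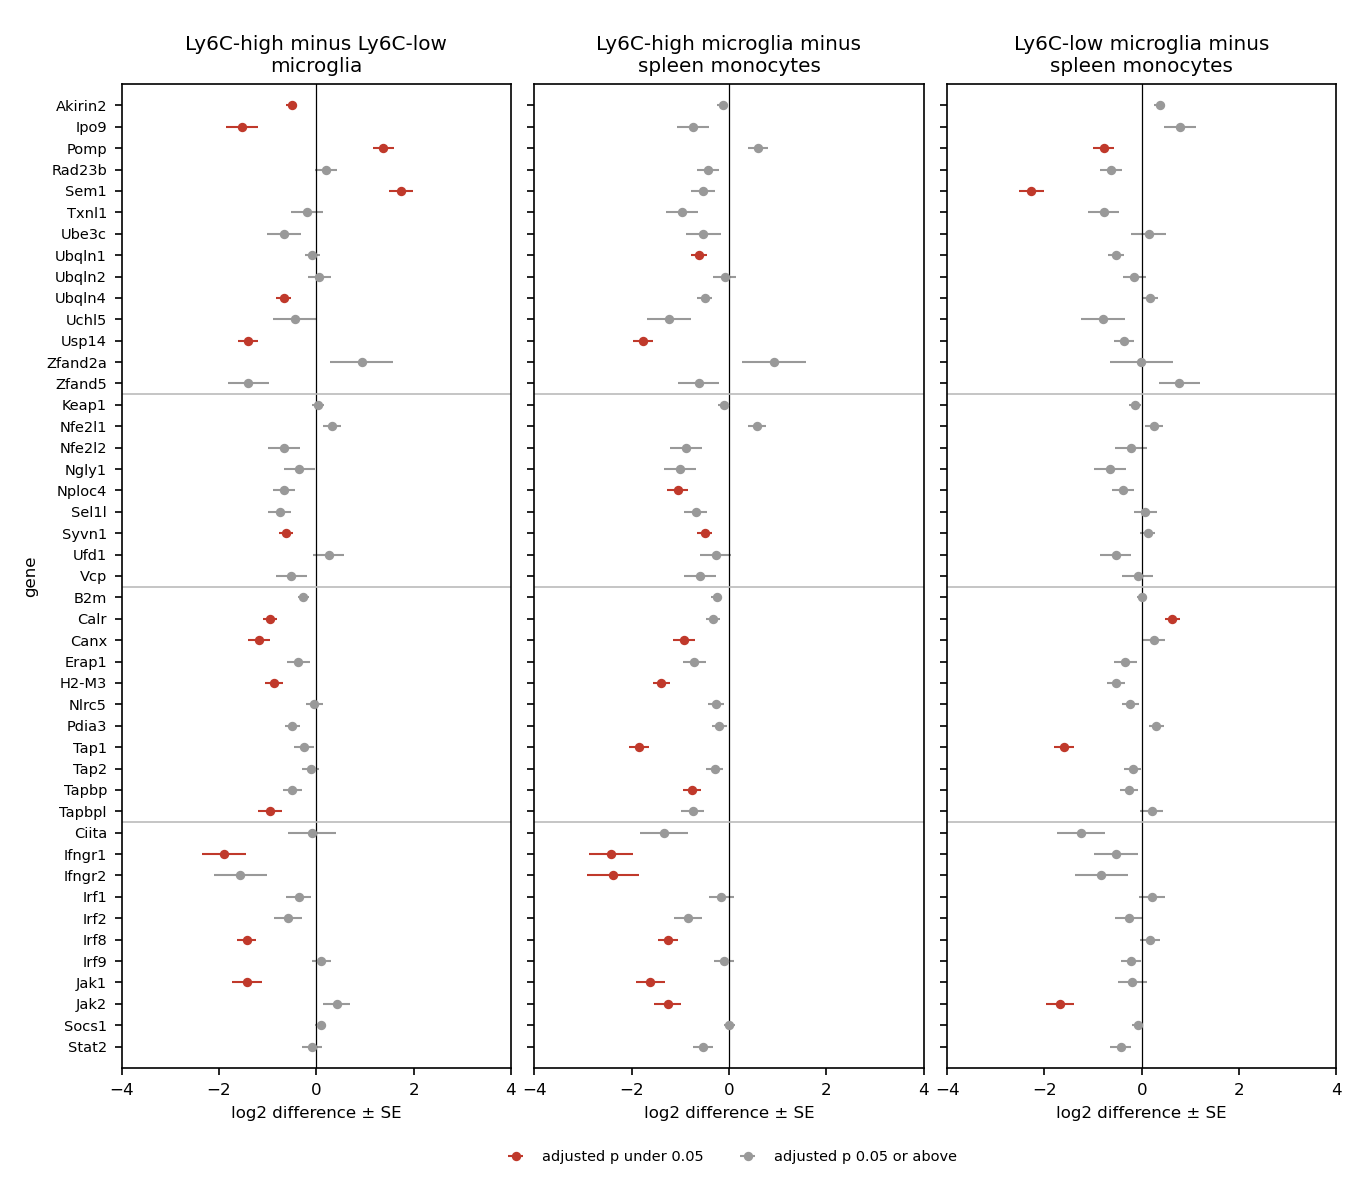
Difference in log2 value ± SE for the measured genes of 4 partner lists (proteasome partners and maturation, NRF route and p97, MHC class I loading, interferon gamma route) in the 3 contrasts, with red points for an adjusted p under 0.05. Pomp and Sem1 lie right of 0 between the microglia groups, and Tap1 lies left of 0 in both contrasts against monocytes.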

How the data were processed

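RNA of 9 sorted samples was read on Affymetrix arrays. Deposited by the authors was a single table of log2 intensities. The submitters' processing notes name RMA and oligo, and the sources used here give no build for the array design. The arrays had not been forced to 1 distribution: the interquartile range was 2.24 on Ly6C-high array 1 and 2.62 to 2.91 on the others. Of 34760 probe sets, 21640 had 1 gene symbol, 1321 several and 11799 none, and those with 1 symbol gave 19937 genes.

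limma 3.58.1 in R 4.3.3 (lmFit, eBayes) fitted 3 group means to the deposited log2 values, and two-sided p-values were adjusted by Benjamini-Hochberg over all genes, with a threshold of 0.05. Precision is limited by the number of arrays. The code was tested on simulated data. In every contrast the text names the immune class and its constitutive counterparts, and in each role class the 2 called members with the largest absolute difference (else the largest 1). Psma2, Psma3, Psma6, Psmb3, Psmb4, Psmc2, Psmc3, Psmc6, Psmd3, Psmd4, Psmd6, Psmd7, Psmd11, Psmd12, Psmd5, Psmg2, Psmg3, Psmg4 and Psmd10, where given with values, were named after these were seen. Members and lists were chosen with earlier results of these data known. Alternatives covered scaling, dim genes, the variance model, left-out arrays and blocks.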

Additional observations from a re-analysis of the deposited data

How the results depend on the processing

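Calls between the microglia groups depended most on the settings. The 2 members called higher in Ly6C-high microglia became 5 with quantile normalization, 6 with cyclic loess, 1 with median centring, 0 with weights per group, 4 with weights per array, 1 with only the 2 groups compared, 0 without Ly6C-high array 2 and Ly6C-low array 3, 4 without array 1 of both microglia groups (chosen after seeing the data), 0 with the replicate block and 4 with the block on the number in the description. The 4 called lower became 1, 2 and 2 with quantile normalization, cyclic loess and weights per group, and 1 both with only the 2 groups and without Ly6C-high array 2 and Ly6C-low array 3. Against monocytes, the 22 lower in Ly6C-high microglia became 13 and 12 with quantile normalization and cyclic loess and 15 with only the 2 groups compared. In that contrast 1 was higher with weights per array and without array 1 of both microglia groups. The 20 lower in Ly6C-low microglia became 32 with weights per group, 30 with weights per array and 26 with only the 2 groups compared. They became 14 without Ly6C-high array 2 and Ly6C-low array 3 and 16 with a trend in the variance model. With only the 2 groups compared 1 was higher. Settings not listed here also shifted some counts.

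Leaving out 1 array gave 0 to 3 higher and 1 to 4 lower between the microglia groups, 0 to 1 higher and 12 to 29 lower in Ly6C-high microglia against monocytes, and 0 to 1 higher and 9 to 23 lower in Ly6C-low microglia. The lowest counts against monocytes came without monocyte array 2 (12) and monocyte array 1 (9). Comparing the microglia groups, 0 were higher without Ly6C-low array 3 or monocyte array 2, and 1 without Ly6C-high array 2 or 3, Ly6C-low array 1 or monocyte array 1, while 1 was lower without Ly6C-low array 2 or 3 and 2 without monocyte array 1.

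Signs of uncalled differences between the microglia groups turned for Psmb10 (0.21 with quantile normalization, 0.29 with cyclic loess, 0.039 with the description block, 0.22 without Ly6C-high array 3, 0.07 without Ly6C-low array 2), Psme2 (0.041 with cyclic loess), Psmb5 (-0.30 with weights per array and without Ly6C-high array 2 and Ly6C-low array 3, -0.080 without array 1 of both groups, -0.39 without Ly6C-high array 2, -0.24 without Ly6C-low array 1), Psme1 (0.042 without Ly6C-high array 1) and Psmb7 (0.31 without Ly6C-high array 1). Over all left-out arrays these 4 ran from -0.26 to 0.22 (Psmb10), -0.39 to 0.37 (Psmb5), -0.76 to 0.042 (Psme1) and -1.33 to 0.31 (Psmb7). The causes were not tested.

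The labels do not say that title numbers pair samples, so they entered only as an alternative block. Arrays with the same title number in the microglia groups correlated in their deviations at 0.30, 0.15 and -0.03. The sample descriptions carry other numbers, shared by array 1 of both microglia groups and by Ly6C-high array 2 with Ly6C-low array 3, whose deviations correlated at 0.30 and 0.21. The labels do not say whether such a number marks a shared sort or animal, and it entered as a random block (correlation 0.2945), with 21 and 20 members lower than monocytes. With the replicate block, 26 and 18 members were lower than monocytes. Dim probe sets limit what can be read of Psmd5, Psma8 and Psmb11. Psmg1 and Psmd9 also stood near the median gene mean of 6.13 in Ly6C-high microglia, with means of 6.18 and 6.01.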
